A study of Homo sapiens with 4 samples.

Results

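The HOX cluster genes are the protein-coding genes named HOX followed by a cluster letter from A to D and a number. They were picked by symbol and biotype alone, without reference to their levels. The files held 39 of them among 58735 genes, 11 in HOXA, 10 in HOXB, 9 in HOXC and 9 in HOXD. RNA was sequenced from MHCC-97H cells, a hepatocellular carcinoma (HCC) line used for its high metastatic capacity. Recipient cells were wild type in every condition and labelled as 1 batch, and each condition had 1 library, 4 in all. Cells received PBS, 2 μg of migrasomes from MHCC-97H cells kept in normoxia (normo-Migs), the same amount from cells kept in hypoxia (hypo-Migs), or the same amount from hypoxic cells in which CD147 had been knocked out (CD147KO-Migs), each for 24 h. Migrasomes are vesicles that migrating cells leave behind on their retraction fibres. The knockout was thus in the donor cells, and the cells that were sequenced were labelled wild type in all 4 conditions.

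HOX genes encode homeodomain transcription factors that give cells their position along the body axis. They lie in 4 clusters, and in the embryo the low-numbered genes at the 3′ end of a cluster are active earlier and closer to the head, the high-numbered genes at the 5′ end later and further toward the tail. Retinoic acid activates the 3′ genes, Polycomb and trithorax proteins keep each cluster silent or active through cell division, and PBX, MEIS and PKNOX proteins bind DNA together with HOX proteins. Many adult cells and tumour lines keep a HOX pattern that reflects where they came from.

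The library labelled PBS stood apart from the others. Reads on genes numbered 33882496 to 40285223 in a library, and the 19895 genes that reached 10 reads in any library were tested. A gene passed when its adjusted p was at most 0.05 by an exact binomial test (edgeR, two-sided) and its log2 fold change was at least 1 in size. Of the genes tested, 27.2% to 28.3% passed between a Mig library and PBS, and 4.87% to 5.05% passed between 2 Mig libraries. These tests compare single libraries and not conditions, since no condition was replicated, and with reads not tied to molecular identifiers their intervals cover counting error only. The labelled cell type was matched by its markers in part. The secreted liver proteins ALB, AFP, APOB and TTR and the HCC marker GPC3 had 0 reads in every library, whereas the liver transcription factors FOXA1 and HNF4A had 499 to 678 and 134 to 246 reads in the 4 libraries. The fibrinogen genes FGA and FGB had 0 reads with PBS and 395 to 493 and 561 to 832 with Migs. In all, 12, 8, 7 and 6 of the 17 hepatocyte and HCC markers had 0 reads with PBS, normo-Migs, hypo-Migs and CD147KO-Migs. Summed FPKM (reads per 1000 bases of gene, scaled to library size) of these markers was 4.35 with PBS and 17.4 to 21.1 with Migs. Of the 10 of them that were tested, 6 passed as higher and 1 as lower in each comparison with PBS. Among all genes tested, 16.5% to 17.5% passed as higher and 10.7% to 10.9% as lower. The lower marker was SERPINA1, at 25 reads with PBS and 2, 9 and 10 with normo-Migs, hypo-Migs and CD147KO-Migs. The 6 epithelial markers summed to 921 FPKM with PBS and 1104 to 1305 with Migs. In that list the keratin KRT19 had 11287 reads with PBS and 32 to 75 with Migs, and the adhesion gene CDH1 had 0 reads with PBS and 112 to 123 with Migs. The 10 mesenchymal markers summed to 57.3 FPKM with PBS and 162 to 168 with Migs, and of them SPARC had 0 reads with PBS and 13404 to 16845 with Migs. Endothelial markers summed to 0.578 to 0.881 FPKM and leukocyte markers to 0.300 to 1.99 FPKM. These markers moved together with the HOX differences from PBS given here, and their part in them was not tested. In bulk RNA, fewer cells expressing a gene and less RNA of it per cell cannot be told apart.

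HOX output was similar in total in the 4 libraries and was divided differently among the clusters. Summed FPKM of the 39 genes was 118.14 with PBS and 124.42, 122.82 and 123.60 with normo-Migs, hypo-Migs and CD147KO-Migs, and HOX genes took 0.0309% to 0.0332% of the reads. HOXA genes summed to 45.7 FPKM with PBS and 27.4 to 28.3 with Migs, and so made up 38.7% of HOX output with PBS and 22.2% to 23.0% with Migs. HOXC genes summed to 28.7 FPKM with PBS and 49.5 to 51.6 with Migs, a share of 24.3% against 40.3% to 41.7%. HOXB gave 42.1 FPKM with PBS and 39.0 to 40.6 with Migs, and HOXD, the least used cluster, 1.68 FPKM with PBS and 4.88 to 5.58 with Migs. The order of the clusters was thus HOXA, HOXB, HOXC, HOXD with PBS and HOXC, HOXB, HOXA, HOXD in each Mig library.

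**Figure D1:**
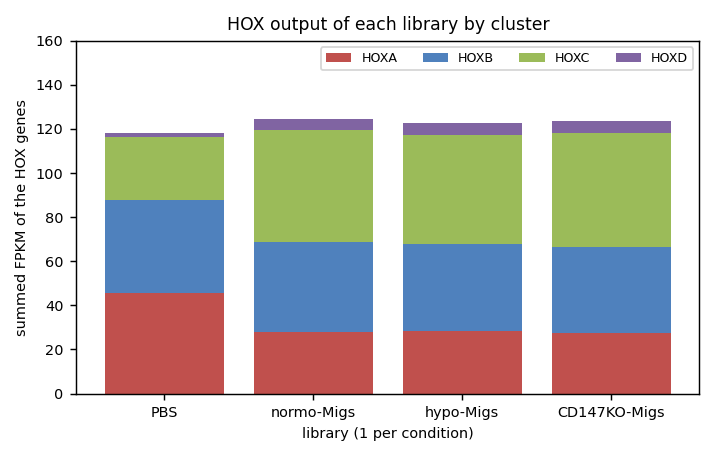
Stacked bars give the summed FPKM of the HOX genes of each cluster (vertical axis) in the 4 libraries, 1 per condition. Total height lay between 118.14 and 124.42, the HOXA segment was taller with PBS (45.7) than in the 3 Mig libraries (27.4 to 28.3), and the HOXC segment was shorter (28.7 against 49.5 to 51.6).

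The genes at the head of the ranking changed as well. With PBS the 5 highest by FPKM were HOXA11 at 17.8, HOXB7 at 14.0, HOXA13 at 13.4, HOXC10 at 12.9 and HOXB6 at 9.33. In each Mig library HOXC10 led at 17.8 to 19.9 FPKM, followed by HOXB7 at 14.1 to 14.5. HOXC13, a gene of hair and nail keratinization, and HOXB13, a gene of the prostate and hindgut, came next at 11.8 to 12.5 and 11.0 to 12.0 FPKM in the Mig libraries. Between 20 and 21 members exceeded 1 FPKM in each library. Of the 39 members, 25 had at least 100 reads in some library, 8 more passed the filter with fewer, and 6 did not pass it. HOXB1, HOXD1, HOXD3 and HOXD4 had 0 reads in every library, a count that allows up to 0.0885 CPM (reads scaled to the total on genes) with PBS and 0.0745 CPM with hypo-Migs. HOXC12 had 0, 1, 4 and 0 reads and HOXD12 had 0, 0, 6 and 2 reads with PBS, normo-Migs, hypo-Migs and CD147KO-Migs, the order in which 4 values are given from here on.

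**Figure D2:**
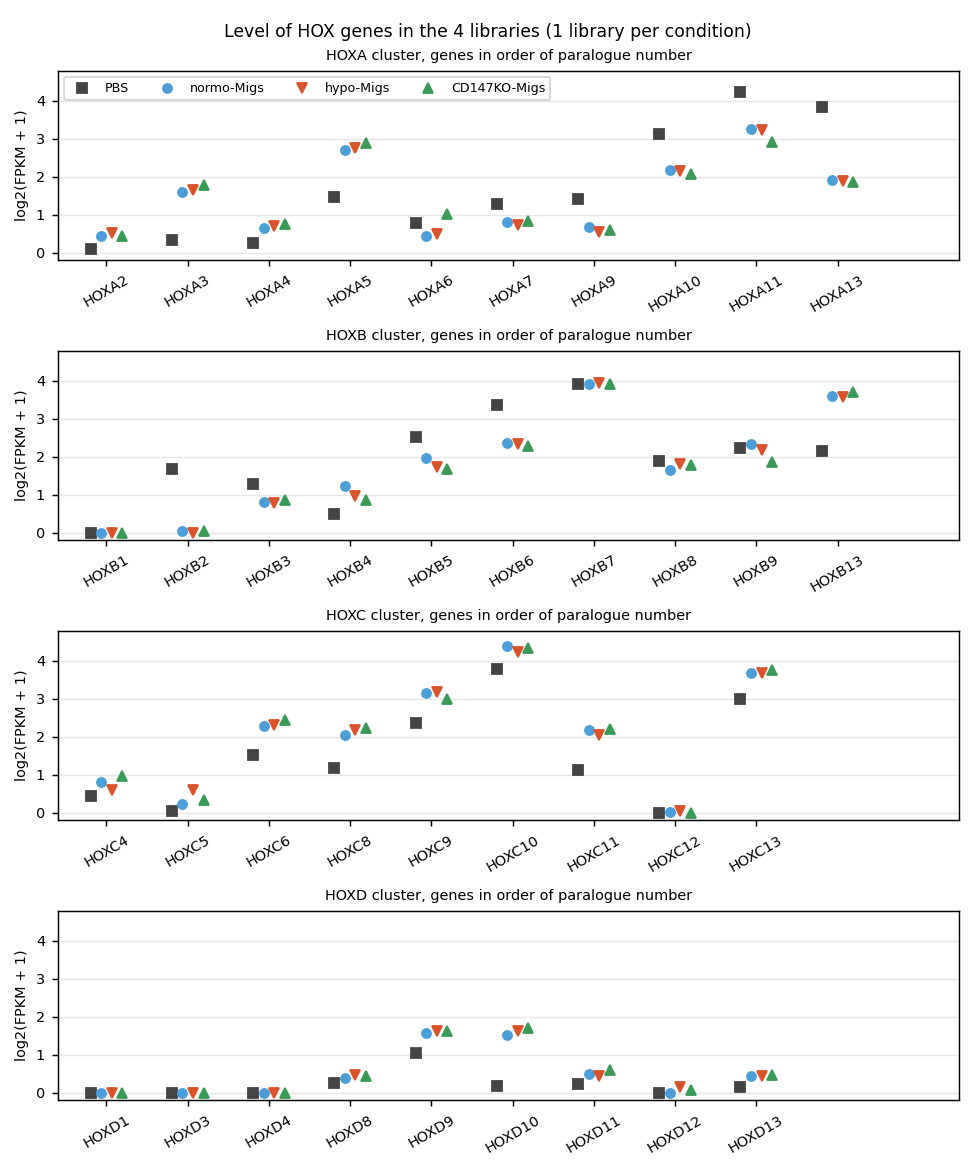
Each panel shows genes of 1 cluster in order of paralogue number, the level as log2(FPKM + 1) on the vertical axis and 1 point per library. PBS points lie below the Mig points from HOXA2 to HOXA5 and above them from HOXA7 to HOXA13, and the 3 Mig points of most genes lie close together.

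Promoter sequences are shown for 5 members that span the range of behaviour: a 3′ HOXA gene that was higher with Migs (HOXA4), a pair of 5′ HOXA genes that were lower (HOXA9 and HOXA13), the HOXD gene with the steepest increase (HOXD10) and 1 with no reads (HOXD4). They come from RefSeq on GRCh38.p14, which shares its chromosome coordinates with the hg38 build of the reads, and run from 250 bases before to 50 after an annotated start, 5′ to 3′ on the strand of the gene. CG dinucleotides, the sites of DNA methylation, are in capitals.
HOXA4, chr7:27130708-27131007, minus strand: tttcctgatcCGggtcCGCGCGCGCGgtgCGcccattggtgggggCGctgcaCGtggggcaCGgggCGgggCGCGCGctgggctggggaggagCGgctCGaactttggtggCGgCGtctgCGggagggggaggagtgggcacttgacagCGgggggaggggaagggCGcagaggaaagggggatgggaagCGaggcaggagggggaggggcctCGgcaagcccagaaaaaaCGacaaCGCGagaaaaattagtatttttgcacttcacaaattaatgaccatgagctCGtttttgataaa
HOXA9, chr7:27165488-27165787, minus strand: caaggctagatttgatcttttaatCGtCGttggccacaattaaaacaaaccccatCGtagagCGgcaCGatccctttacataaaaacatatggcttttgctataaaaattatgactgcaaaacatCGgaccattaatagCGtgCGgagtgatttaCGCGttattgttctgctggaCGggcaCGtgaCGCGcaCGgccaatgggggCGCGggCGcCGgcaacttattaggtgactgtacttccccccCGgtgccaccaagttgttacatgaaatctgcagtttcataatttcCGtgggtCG
HOXA13, chr7:27200042-27200341, minus strand: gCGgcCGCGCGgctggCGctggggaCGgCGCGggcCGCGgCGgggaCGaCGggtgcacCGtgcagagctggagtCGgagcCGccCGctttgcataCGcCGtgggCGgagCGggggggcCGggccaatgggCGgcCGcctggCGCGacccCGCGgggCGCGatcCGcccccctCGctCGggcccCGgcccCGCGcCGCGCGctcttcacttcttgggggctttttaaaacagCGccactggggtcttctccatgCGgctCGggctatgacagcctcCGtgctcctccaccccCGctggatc
HOXD10, chr2:176116528-176116827, plus strand: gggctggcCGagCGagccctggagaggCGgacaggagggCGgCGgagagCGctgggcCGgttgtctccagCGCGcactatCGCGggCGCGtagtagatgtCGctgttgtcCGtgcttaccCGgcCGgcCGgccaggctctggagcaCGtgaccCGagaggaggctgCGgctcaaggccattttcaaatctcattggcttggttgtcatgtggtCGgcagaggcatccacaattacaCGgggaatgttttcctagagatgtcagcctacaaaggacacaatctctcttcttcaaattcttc
HOXD4, chr2:176151300-176151599, plus strand: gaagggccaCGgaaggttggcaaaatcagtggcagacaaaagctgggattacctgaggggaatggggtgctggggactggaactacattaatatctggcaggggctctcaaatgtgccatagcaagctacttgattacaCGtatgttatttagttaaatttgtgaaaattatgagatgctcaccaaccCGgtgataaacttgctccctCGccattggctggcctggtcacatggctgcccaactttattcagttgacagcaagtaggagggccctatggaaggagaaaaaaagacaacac

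These windows differed widely in base composition. The HOXA13 window held 44 CG dinucleotides at 76.3% G and C, those of HOXA4, HOXD10 and HOXA9 held 27, 23 and 22, and that of HOXD4 held 4 at 47.3% G and C. CG content did not separate silent from active members, since HOXD1 and HOXD3, also at 0 reads, had 36 and 25. RefSeq entries were found for 20 of the 39 members, 27 windows in all, with a median of 22 CG dinucleotides against 14 over all 35116 promoter windows and a median G and C share of 58.0% against 58.7%. HOXA3 and HOXA10 had multiple windows, and HOXC4 and HOXC5 had the same window. The medians and the motif shares that follow therefore count windows and not genes. The TATA motif TATAAA occurred on either strand in 5 of the 27 (18.5%) and in 11.5% of all windows, among them HOXA9 at bases 101 to 106 of the sequence above. The HOX-PBX motif TGATTNAT occurred in 2 of 27 (7.41%) against 2.82%, and the homeodomain core TAATTA in 2 of 27 (7.41%) against 4.84%, both searched on either strand. The RefSeq starts used for HOXA9 and HOXD10 lie 9643 and 7988 bases downstream of the outer end of the gene as counted, which takes in longer transcripts.

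Against the library labelled PBS, members passed the criteria in a larger share than the genes tested as a whole, a difference that is described here and was not tested. With hypo-Migs 21 of the 33 tested members passed (63.6%, against a background of 28.3% of all genes tested), 13 higher (background 17.5%) and 8 lower (background 10.9%). With normo-Migs 20 passed (60.6%, against 27.2%), 14 higher (background 16.5%) and 6 lower (background 10.7%). With CD147KO-Migs 21 passed (63.6%, against 27.5%), 14 higher (background 16.6%) and 7 lower (background 10.9%). The median log2 fold change of the tested members was 0.94, 0.87 and 0.85 with hypo-Migs, normo-Migs and CD147KO-Migs, beside 0.04, 0.03 and 0.03 over all genes tested. These 3 comparisons share the 1 PBS library and are therefore not independent of each other. In all 3, 12 members (36.4%) were higher, where 12.6% of all genes tested were, and 6 members (18.2%) were lower, where 6.66% were. The counts depend on how much libraries of 1 condition would vary, which these data do not measure. At an assumed coefficient of variation of 0.4 they fell to 4, 3 and 3 members with hypo-Migs, normo-Migs and CD147KO-Migs. Of all 19895 genes tested, 1633, 1535 and 1575 passed at that setting in the same order. When DESeq2 took the 4 libraries as replicates, 0 members and 0 of all genes passed in each comparison.

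**Figure D3:**
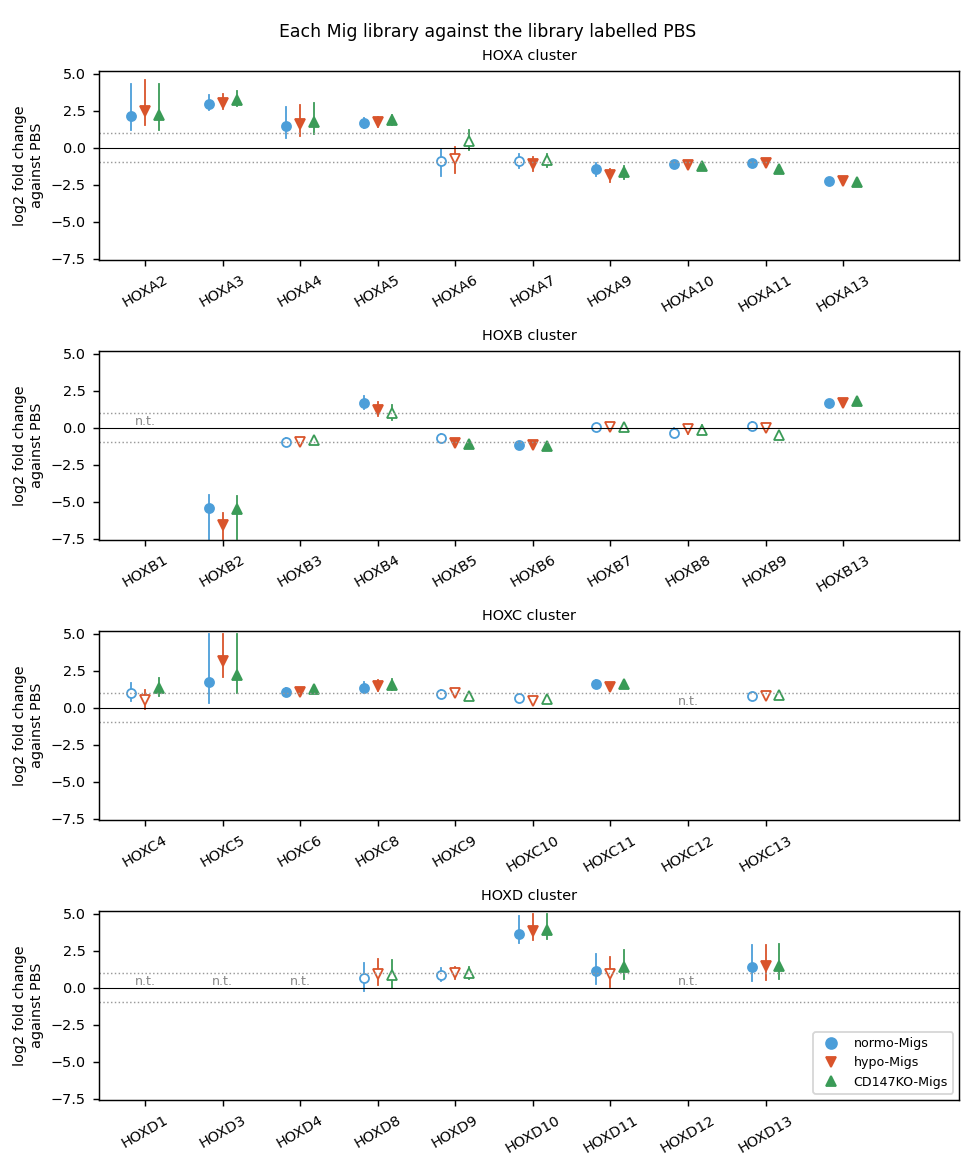
Log2 fold change of HOX genes in each Mig library against the library labelled PBS (vertical axis), with exact 95% intervals of the read ratio as lines that are cut at the panel edge, filled symbols for genes past the criteria, dotted lines at a log2 fold change of 1 in either direction, and n.t. for genes not tested. HOXA2 to HOXA5 lie above 0 and HOXA7 to HOXA13 below it in every comparison, and the tested HOXC and HOXD genes lie above 0.

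In the HOXA cluster (chromosome 7, minus strand, 27100354 to 27200106 from HOXA2 to HOXA13) the direction changed along the cluster. HOXA2 to HOXA5 passed as higher in all 3 comparisons, HOXA9 to HOXA13 passed as lower, and HOXA6 and HOXA7 lay between them. HOXA2 to HOXA5 summed to 2.26 FPKM with PBS and 8.51, 8.96 and 9.90 with normo-Migs, hypo-Migs and CD147KO-Migs, whereas HOXA9 to HOXA13 summed to 40.6 with PBS and 15.5, 15.0 and 12.9. Exons of HOXA4, HOXA6, HOXA7, HOXA9, HOXA10 and HOXA11 share 26.3% to 62.5% of their bases with other genes, and how strands were counted was not given in the sources used here, so reads there may belong in part to a neighbour. The limit is not confined to HOXA. In all, 25 of the 39 members share exon bases with another gene, among them HOXB6 at 32.9% and HOXD10 at 16.8%.

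Among the 3′ HOXA genes, HOXA3, which is needed for the thymus and parathyroid glands, differed most. It had 38, 300, 374 and 375 reads, or 0.255, 2.03, 2.15 and 2.46 FPKM, and its log2 fold change against PBS was 3.02 for hypo-Migs (95% interval 2.60 to 3.60), 2.93 for normo-Migs and 3.22 for CD147KO-Migs. PBS was the low library and the Mig libraries did not overlap with it. HOXA5, which acts in lung development, had 104, 327, 399 and 387 reads, with log2 fold changes of 1.70 (1.41 to 2.05), 1.65 and 1.85 in that order. It was the most abundant of HOXA2 to HOXA5 per length, at 1.76 FPKM with PBS and 5.57 to 6.41 with Migs. HOXA2, a gene of the hindbrain and the second pharyngeal arch, and HOXA4 were scarce, at 5 to 42 and 11 to 44 reads, and their log2 fold changes ran from 2.16 to 2.47 and from 1.49 to 1.74.

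The 5′ HOXA genes went the other way. HOXA13, which patterns the digits and the urogenital tract, had 2364 reads with PBS and 481, 561 and 470 with Migs, or 13.4, 2.75, 2.72 and 2.61 FPKM. The library labelled PBS held 4.90 times the scaled reads of hypo-Migs, a log2 fold change of -2.29 (-2.43 to -2.16), and normo-Migs and CD147KO-Migs gave -2.27 and -2.35. HOXA11, a gene of the forearm, kidney and uterus, was the highest HOX gene with PBS and had 1418, 681, 783 and 534 reads. Its log2 fold changes of -1.07 (-1.20 to -0.95), -1.04 and -1.43 for hypo-Migs, normo-Migs and CD147KO-Migs lay close to the threshold with the first and second of these and further from 0 with the last. HOXA10, a uterine and haematopoietic gene, had 993, 452, 517 and 418 reads, and its log2 fold changes were -1.16, -1.11 and -1.27 in the same order. HOXA9, a gene of blood progenitors, had 175, 63, 56 and 56 reads, with log2 fold changes of -1.82, -1.43 and -1.63. For these 4 genes PBS was the high library, with no Mig library reaching the level in it.

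The genes at the boundary were less clear. HOXA7 had 119, 63, 64 and 66 reads and passed with hypo-Migs alone, at a log2 fold change of -1.09 (-1.57 to -0.66) beside -0.88 and -0.85 with normo-Migs and CD147KO-Migs. HOXA6 had 32, 16, 21 and 46 reads and passed in no comparison with PBS, with values of -0.77, -0.90 and 0.48 for hypo-Migs, normo-Migs and CD147KO-Migs.

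The HOXB cluster (chromosome 17, 48528526 to 48729178, minus strand) held genes of every kind. HOXB2, a gene of the hindbrain and the facial nerve, was nearly confined to the library labelled PBS: it had 176, 2, 0 and 2 reads. Against the floor of 3 reads that a count of 0 allows it was at least 68.2-fold lower with hypo-Migs, and with normo-Migs the ratio of scaled reads was 86.9-fold lower (interval of the log2 ratio -9.50 to -4.57). HOXB13, at the far 5′ end of the cluster, was higher with Migs, at 416, 1325, 1549 and 1471 reads or 3.47, 11.1, 11.0 and 12.0 FPKM, with log2 fold changes of 1.67 (1.52 to 1.84), 1.69 and 1.80 for hypo-Migs, normo-Migs and CD147KO-Migs.

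HOXB6 was lower in all 3 comparisons, at 840, 374, 425 and 360 reads and log2 fold changes of -1.20, -1.14 and -1.24. HOXB5, its neighbour, had 338, 203, 190 and 159 reads and passed with hypo-Migs at -1.04 and CD147KO-Migs at -1.10, but not with normo-Migs at -0.71. HOXB3, with 372, 188, 218 and 214 reads, lay just inside the fold threshold at -0.98, -0.96 and -0.81 and was not called. HOXB4, which expands blood stem cells when overexpressed, differed in the other direction, at 54, 172, 147 and 110 reads, and passed with hypo-Migs at 1.20 and normo-Migs at 1.65 but not with CD147KO-Migs at 0.98.

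The middle of the cluster was level. HOXB7, the second most abundant HOX gene in each library, had 741, 743, 900 and 766 reads, or 14.0, 14.1, 14.5 and 14.2 FPKM. Its log2 fold change with hypo-Migs was 0.06, with an interval of -0.08 to 0.20. HOXB8 had 193, 151, 207 and 177 reads and HOXB9 had 330, 358, 370 and 240, with log2 fold changes against PBS between -0.33 and -0.12 and between -0.48 and 0.14, none past the criteria.

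In the HOXC cluster (chromosome 12, 53938765 to 54056030, plus strand) the 8 tested genes had positive log2 fold changes in each comparison with PBS. Among all 19895 genes tested, 10357, 10429 and 10213 were positive with hypo-Migs, normo-Migs and CD147KO-Migs. Of the 8, 4 passed as higher in all 3 comparisons, HOXC5, HOXC6, HOXC8 and HOXC11, where 12.6% of all genes tested did. HOXC11 had 134, 397, 412 and 414 reads, and its log2 fold changes were 1.39 (1.12 to 1.69), 1.57 and 1.59 with hypo-Migs, normo-Migs and CD147KO-Migs. HOXC8, which acts in the thoracic skeleton and motor neurons, had 82, 205, 272 and 245 reads, with values of 1.49, 1.32 and 1.54. HOXC6 had 229, 473, 566 and 558 reads, with values of 1.08, 1.06 and 1.26. In these 3 genes the PBS library was lowest and the Mig libraries lay within a narrow range.

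The most abundant HOXC genes differed by less than the threshold. HOXC10, which patterns the lumbar region, had 1038, 1591, 1681 and 1581 reads, or 12.9, 19.9, 17.8 and 19.2 FPKM, with log2 fold changes of 0.48 (0.37 to 0.59), 0.63 and 0.59 for hypo-Migs, normo-Migs and CD147KO-Migs. HOXC13 had 584, 980, 1168 and 1069 reads with values of 0.78, 0.76 and 0.85, and HOXC9 had 240, 453, 553 and 416 reads with values of 0.98, 0.93 and 0.77. Their intervals excluded 0, so the higher summed HOXC level came in part from genes that were not called. HOXC5 had 2, 11, 37 and 17 reads and HOXC4, called with CD147KO-Migs alone at 1.33, had 34, 69, 57 and 90. Exons of HOXC5 share 59.9% of their bases with another gene.

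The HOXD cluster (chromosome 2, 176092891 to 176190907, plus strand) was used at its 5′ side, from HOXD8 to HOXD13 apart from HOXD12, which was not tested, while HOXD1, HOXD3 and HOXD4 at its 3′ side had no reads. HOXD10, a posterior gene known as a target of miR-10b, had 12, 172, 228 and 212 reads, or 0.129, 1.86, 2.09 and 2.23 FPKM. Its scaled reads were 16.3 times those of PBS with hypo-Migs, a log2 fold change of 3.84 (3.20 to 5.00), and 3.65 and 3.91 with normo-Migs and CD147KO-Migs, the highest values among the members. HOXD9 had 69, 126, 158 and 138 reads, with log2 fold changes of 0.96, 0.87 and 0.96, under the threshold. HOXD13, a digit gene, passed in all 3 comparisons on few reads (9, 27, 32 and 29), HOXD11 (13, 30, 31 and 38) in those with normo-Migs and CD147KO-Migs, and HOXD8 (17, 27, 40 and 32) in none.

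Read across clusters, some paralogue groups moved together and others did not. In group 4, HOXA4, HOXB4 and HOXC4 had positive log2 fold changes in each comparison with PBS, though not each passed, and the group summed to 0.958, 2.64, 2.11 and 2.44 FPKM. In group 13, HOXA13 was lower while HOXB13 and HOXD13 were higher, and the group summed to 24.0, 26.0, 26.0 and 27.5 FPKM. Group 10 was divided likewise, with HOXA10 lower and HOXD10 higher, at 20.8, 25.3, 23.3 and 24.6 FPKM. Group 11 summed to 19.1, 12.5, 11.9 and 10.6 FPKM, following HOXA11, although HOXC11 was higher. Group 2 was 2.24 FPKM with PBS, nearly all of it HOXB2, and 0.368 to 0.422 with Migs, nearly all of it HOXA2.

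Other genes within the clusters, most of them noncoding, were examined beside their HOX neighbours. Of 62 that overlap the cluster spans, 5 of them protein-coding, 20 were tested. With hypo-Migs 5 passed as higher and 8 as lower (17.5% and 10.9% of all genes tested), with normo-Migs 4 and 10 (16.5% and 10.7%), and for CD147KO-Migs 5 and 8 (16.6% and 10.9%). HOTTIP, a long noncoding RNA made beyond HOXA13 and known to support 5′ HOXA transcription, had 800, 47, 74 and 76 reads, with log2 fold changes of -3.61 (-4.02 to -3.31), -4.01 and -3.38 for hypo-Migs, normo-Migs and CD147KO-Migs. HOXA11-AS (312, 113, 110 and 118 reads) and HOXA10-AS (50, 9, 18 and 8) were lower as well, so the noncoding genes beside the 5′ HOXA genes passed in the same direction as those genes. At the 3′ end, HOTAIRM1, a noncoding RNA known from myeloid cells, had 76, 249, 241 and 200 reads and HOXA-AS2 had 53, 110, 141 and 192, both higher. HOXB-AS3, whose exons overlap those of HOXB3, HOXB5 and HOXB6, was lower at 595, 243, 297 and 275 reads. HOTAIR, a noncoding RNA of the HOXC cluster known for its links to Polycomb, was higher at 60, 148, 146 and 139 reads, with log2 fold changes of 1.04, 1.29 and 1.16. Other noncoding genes of that cluster went in part with the HOXC genes and in part against them. AC012531.1 had 105, 193, 196 and 194 reads and HOXC-AS1 had 30, 40, 64 and 42. HOXC-AS3 had 42, 10, 29 and 19 reads and passed as lower with normo-Migs at -1.86 and CD147KO-Migs at -1.09, and HOXC13-AS had 103, 49, 105 and 109 reads and passed as lower with normo-Migs alone at -1.02. Without the strand of the reads, an antisense RNA and a HOX gene cannot be told apart on the exon bases they share. That share was 1.69% of the exon bases of HOXA13 with HOTTIP and 3.58% of those of HOXB5 with HOXB-AS3. It was 31.1% of those of HOXA11 with HOXA11-AS.

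**Figure D4:**
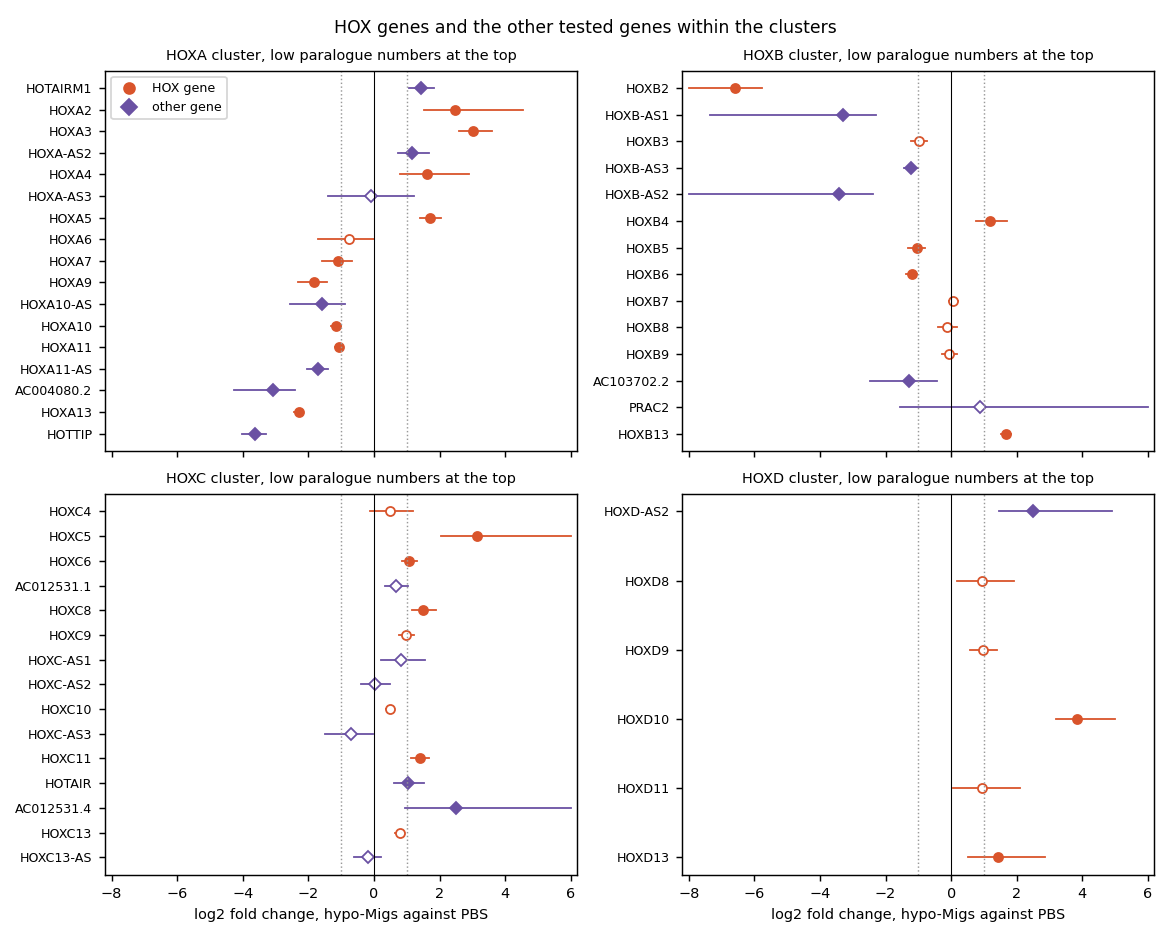
Log2 fold change with hypo-Migs against the library labelled PBS (horizontal axis, lines for exact 95% intervals of the read ratio, cut at the panel edge) for the tested HOX genes (circles) and the other tested genes within each cluster (diamonds), with low paralogue numbers at the top and filled symbols past the criteria. HOTTIP, at -3.61, sits beside HOXA13 at -2.29 at the 5′ end of HOXA, while HOTAIRM1, at 1.43, sits beside HOXA2 at 2.47.

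Genes that regulate HOX clusters or act with HOX proteins were counted as lists. Of 23 Polycomb genes, none reached the fold threshold against PBS in any of the 3 comparisons, though 19, 20 and 19 passed the adjusted p alone with hypo-Migs, normo-Migs and CD147KO-Migs, as did 71.3%, 69.6% and 69.9% of all genes tested. Their summed FPKM lay between 298.8 and 299.5. Of 14 trithorax and opposing genes none reached it either, with 13, 11 and 12 past the adjusted p alone in that order and a sum of 162.0 to 167.3 FPKM. Of the 9 TALE cofactors, 1, 3 and 2 were higher with hypo-Migs, normo-Migs and CD147KO-Migs and none lower, where 17.5%, 16.5% and 16.6% of all genes tested were higher. Among them MEIS3 had 200, 461, 677 and 667 reads, with log2 fold changes of 1.53, 1.22 and 1.71.

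Of 17 genes of retinoic acid uptake, synthesis, signalling and breakdown 12 were tested, and in each comparison with PBS 4 passed, 3 higher and 1 lower, beside the 27.2% to 28.3% of all genes tested that passed. The median log2 fold change of the list was -0.07, -0.01 and -0.12 for hypo-Migs, normo-Migs and CD147KO-Migs, so the list as a whole lay near 0 and the 4 genes that passed lay far from it. ALDH1A1, an enzyme that makes retinoic acid, had 8, 6832, 8311 and 7772 reads, and STRA6, a membrane receptor for retinol uptake, had 2, 2266, 2692 and 2283. RARB, a receptor that is itself a retinoic acid target, had 6, 78, 116 and 101 reads. CYP26A1, which breaks retinoic acid down and is usually induced by it, was lower, at 58, 8, 8 and 5 reads and log2 fold changes of -2.78, -2.57 and -3.12 for hypo-Migs, normo-Migs and CD147KO-Migs. These values moved with those of HOXA2 to HOXA5, and their part in them was not tested. Of 11 related homeobox genes 2 were tested, GBX2 at 33, 113, 95 and 86 reads, higher in the 3 comparisons, and MNX1 at 585, 639, 670 and 574, which did not pass.

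The comparisons among the Mig libraries ask whether hypoxia of the donor cells, or CD147 in them, went with a HOX difference in the recipient cells, and few members differed. Between hypo-Migs and normo-Migs 1 of 33 tested members passed (3.03%), against a background of 4.87% of all genes tested, 2.53% higher and 2.34% lower. Between hypo-Migs and CD147KO-Migs 1 passed (background 5.05%, 2.57% higher and 2.47% lower), and between normo-Migs and CD147KO-Migs also 1 (background 4.90%, 2.36% higher and 2.53% lower). The member that passed in the first was HOXC5, at 37 reads with hypo-Migs and 11 with normo-Migs, a log2 fold change of 1.37 (0.51 to 2.63, adjusted p = 0.009, exact binomial test). HOXA6 passed in the others, at 46 reads with CD147KO-Migs against 21 with hypo-Migs, a log2 fold change of -1.25 (-2.15 to -0.55, adjusted p = 0.003, exact binomial test), and 16 with normo-Migs, -1.38 (-2.40 to -0.64, adjusted p = 0.002, exact binomial test). Both genes had few reads and share exon bases with neighbours, and neither call held at an assumed coefficient of variation of 0.1.

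Better measured members lay close together in the 3 Mig libraries. Over the 24 members with at least 100 reads in some library other than HOXB2, the 72 log2 fold changes between Mig libraries reached 0.67 in size, with a median size of 0.149. The 0.67 was HOXB4, with 172 reads with normo-Migs and 110 with CD147KO-Migs. HOXB9 was at 0.43 between hypo-Migs and CD147KO-Migs and at 0.61 between normo-Migs and CD147KO-Migs, with 370, 358 and 240 reads in the 3 libraries. HOXA11 was at 0.35 and 0.39 in the same pairs, with 783, 681 and 534 reads in the libraries as ordered for HOXB9. For HOXB9 and HOXA11 the adjusted p passed in these pairs and the fold did not. The same held for HOXB4 with normo-Migs against either other Mig library, and for HOXC10 between hypo-Migs and normo-Migs. It also held for HOXB5 and HOXA3 between normo-Migs and CD147KO-Migs. The 4 genes with the most reads in the Mig libraries, HOXC10, HOXB13, HOXC13 and HOXB7, passed both criteria in none of the 3 pairs.

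**Figure D5:**
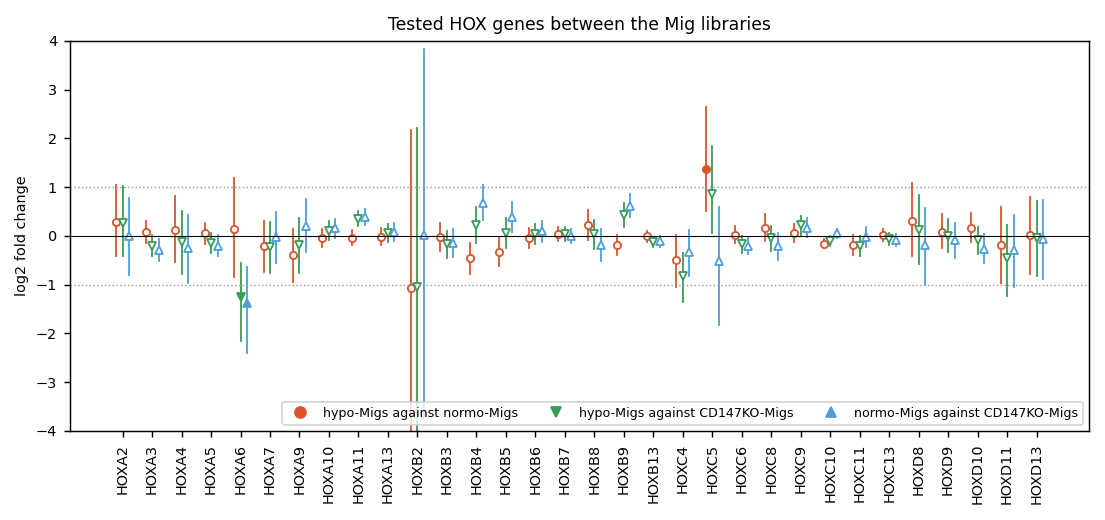
Log2 fold change between each pair of Mig libraries (vertical axis) for tested HOX genes in order of cluster and paralogue number, with exact 95% intervals of the read ratio as lines cut at 4 in either direction and filled symbols past the criteria. Most points lie near 0, and HOXC5 and HOXA6 are the members past the dotted lines at 1 with filled symbols.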

How the data were processed

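Total RNA was taken with TRIzol from 4 cultures of MHCC-97H cells. The labels name a SMARTer mRNA kit, whereas the supplementary methods describe poly-T beads and random hexamers. The authors deposited raw counts, the reads on each gene without normalization, and FPKM, in which reads are divided by gene length and by sequencing depth. The submitters' processing notes name CASAVA 1.8, fastp, HISAT2 2.0.5, featureCounts 1.5.0-p3 and hg38. The strand setting is not given in the sources used here. Genes were matched by Ensembl identifier. Cluster spans came from the gene coordinates that the authors deposited, which for the 39 members were those of GENCODE 29, and exon overlaps came from GENCODE 29.

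Tests used the counts of genes that reached 10 reads in any library. TMM factors were 1.02, 0.986, 0.996 and 0.999 for PBS, normo-Migs, hypo-Migs and CD147KO-Migs. A prior count of 2 entered the log2 fold changes. With 1 library per condition a model with a term for each condition has no residual degrees of freedom, so the reads of 2 libraries were compared by edgeR's two-sided exact binomial test (binomTest on the TMM-scaled library sizes, since exactTest failed at dispersion 0). Benjamini-Hochberg adjustment of its p-values ran over all 19895 genes tested. The thresholds, an adjusted p of 0.05 and a log2 fold change of 1, were those in the study's methods. The procedure was tested on simulated data that held counting error alone, which cannot show how it behaves when libraries of 1 condition vary. Intervals of read ratios are exact (Clopper-Pearson, 95%). HOX genes were named by rule, those with at least 100 reads in some library with all their reads, others with fewer reads also where they bear on a comparison. Genes of the other lists were named where they passed against PBS or led their list in reads. Some were also named outside that rule, among them ALB, AFP, APOB, TTR, GPC3 and HNF4A. Some genes that the rule takes in are not reported here. The members and lists were chosen with earlier results of these data known. Promoter sequences came from RefSeq tables for GRCh38.p14. Software was edgeR 4.0.16 and DESeq2 1.42.0 under R 4.3.3, and pandas 2.3.3, numpy 2.4.6 and matplotlib 3.10.9 under Python 3.11.15. Alternatives changed the scaling, the filter, the prior count, the genes tested, the assumed spread, the tool and the unit.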

Additional observations from a re-analysis of the deposited data

How the results depend on the processing

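No paired analysis was possible because each condition had 1 library, and for the same reason no replicate could be left out. Counts of members past the criteria are given in the order hypo-Migs, normo-Migs and CD147KO-Migs against PBS (21, 20 and 21 as reported). They were 10, 8 and 12 on log2(FPKM + 1) by fold alone, 4, 3 and 3 at an assumed coefficient of variation of 0.4, and 0, 0 and 0 with DESeq2 when the 4 libraries were taken as replicates, where 4, 2 and 3 members had an unadjusted p under 0.05. Under the other alternatives the counts stayed between 17 and 23. HOXB7, near 0 throughout, changed sign with normo-Migs (-0.025 scaled by total reads, -0.0038 with protein-coding genes alone) and CD147KO-Migs (-0.00072 by total reads). Between Mig libraries the count of 1 became 0 in each pair on FPKM, at a coefficient of variation of 0.1 or 0.4, and with DESeq2 (0 members at an unadjusted p under 0.05). It became 2 for hypo-Migs against normo-Migs and against CD147KO-Migs by fold alone, and 0 for hypo-Migs against normo-Migs with 10 reads in every library. Leaving out the library labelled PBS, an alternative chosen after seeing the data, gave 1, 1 and 1. Of all genes tested, 5640 passed with hypo-Migs against PBS, 2747 with 10 reads in every library, 1674 on FPKM, 1633 at a coefficient of variation of 0.4 and 0 with DESeq2. With normo-Migs and CD147KO-Migs, 1619 and 1658 passed on FPKM, 1535 and 1575 at a coefficient of variation of 0.4, and 0 with DESeq2. The cause of these shifts was not tested. Members under about 100 reads carry wide intervals, and their values are the least certain.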
